A study of Rattus norvegicus with 4 samples.

Results

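Ribosome biogenesis genes encode the machinery that makes ribosomes in the nucleolus, and their transcripts were followed in cultured heart muscle cells given the histone deacetylase inhibitor TMP195. They were chosen by name, as 59 listed genes, and 53 of them are among the 17147 gene names of the deposited table. Ebna1bp2 and Nhp2 are listed at 0 in every library and could not be tested, so 51 members entered the test. Polr1d, Utp6, Wdr36, Rrp1b, Rrp12 and Tsr1 were not analysed here. Of the tested members 7 serve RNA polymerase I and 7 the box C/D and H/ACA particles that modify ribosomal RNA. Assembly of the small subunit is the task of 17 and that of the large subunit of 17, while Ncl, Npm1 and Ddx21 act at several steps. The study cultured neonatal rat ventricular myocytes, called NRVMs, from the left ventricle in serum-free medium with a Nutridoma supplement. For 48 h they received either the solvent DMSO, the vehicle, or 3 µM TMP195, a small molecule that blocks class IIa histone deacetylases by binding in their catalytic pocket. Each treatment has 2 libraries of total RNA, with 11768452 to 14232152 fragments per library. The labels give neither the strain and age of the rats nor whether the libraries came from separate cultures. Each limma p-value thus reflects library-to-library spread alone, mostly as pooled across genes, and that spread could be technical.

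Ribosome making starts when RNA polymerase I copies the ribosomal DNA repeats into a long precursor RNA. Small nucleolar RNAs in box C/D particles guide methylation of that precursor and those in H/ACA particles guide its conversion of uridine to pseudouridine, while large sets of assembly factors fold and cut it around the ribosomal proteins. In heart muscle, this production is known to rise when cells grow in size, and the transcription factor MYC is a known activator of many of these genes.

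With TMP195 many ribosome biogenesis genes were higher and none was called lower. Of the 51 tested members 26 rose and 0 fell at a limma adjusted p under 0.05, and 25 did not pass. Over all 12689 genes tested, 9.93% rose by this rule and 10.3% fell. At an unadjusted p under 0.05 limma found 36 members higher and 0 lower, beside 1941 and 2004 of the 12689 genes. With limma-voom 25 members were called higher and 0 lower. The median log2 fold change of the members was 0.32, beside -0.01 for all genes tested. The log2 fold change lay above 0 in 49 of the 51, against 49.3% of all genes. In 42 members both TMP195 libraries exceeded both vehicle libraries, which held for 28.0% of all genes, and in Ubtf and Taf1b both were below. The mean value reached 100 in all members but Taf1b, and among genes at that level 14.6% rose. The members that rose did so by log2 fold changes of 0.24 to 0.83, and the largest was less than a doubling. Taken as one sum, the members made up 0.452% and 0.460% of the vehicle libraries' totals and 0.561% and 0.557% of the TMP195 libraries' totals. Without Ncl and Npm1 the sum was 0.299% and 0.307% with vehicle and 0.370% and 0.365% with TMP195. In bulk RNA a change in the make-up of the culture and a change of RNA per cell cannot be told apart.

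The count rested on having both libraries of each group. Without vehicle 1, without vehicle 2 or without TMP195 2, limma called 0 members and 0 genes of the whole table, with 18, 29 and 21 members higher and 0 lower at an unadjusted p under 0.05. Without TMP195 1 it called 6 members higher, Nolc1, Bop1, Ncl, Npm1, Ppan and Gnl3, among 322 genes. In a further filter, added once the data had been seen, the test was limited to genes whose mean reached 100. There 19 of 50 members rose without vehicle 1, beside 11.8% of all genes. With it 23 rose without vehicle 2 (13.2% of all genes), 24 without TMP195 1 (13.1%) and 18 without TMP195 2 (12.2%), and in these fits the spread of each gene was replaced by the trend across genes. Each of the 26 members that rose kept a log2 fold change above 0 without each library in turn, the lowest being 0.13.

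**Figure D1:**
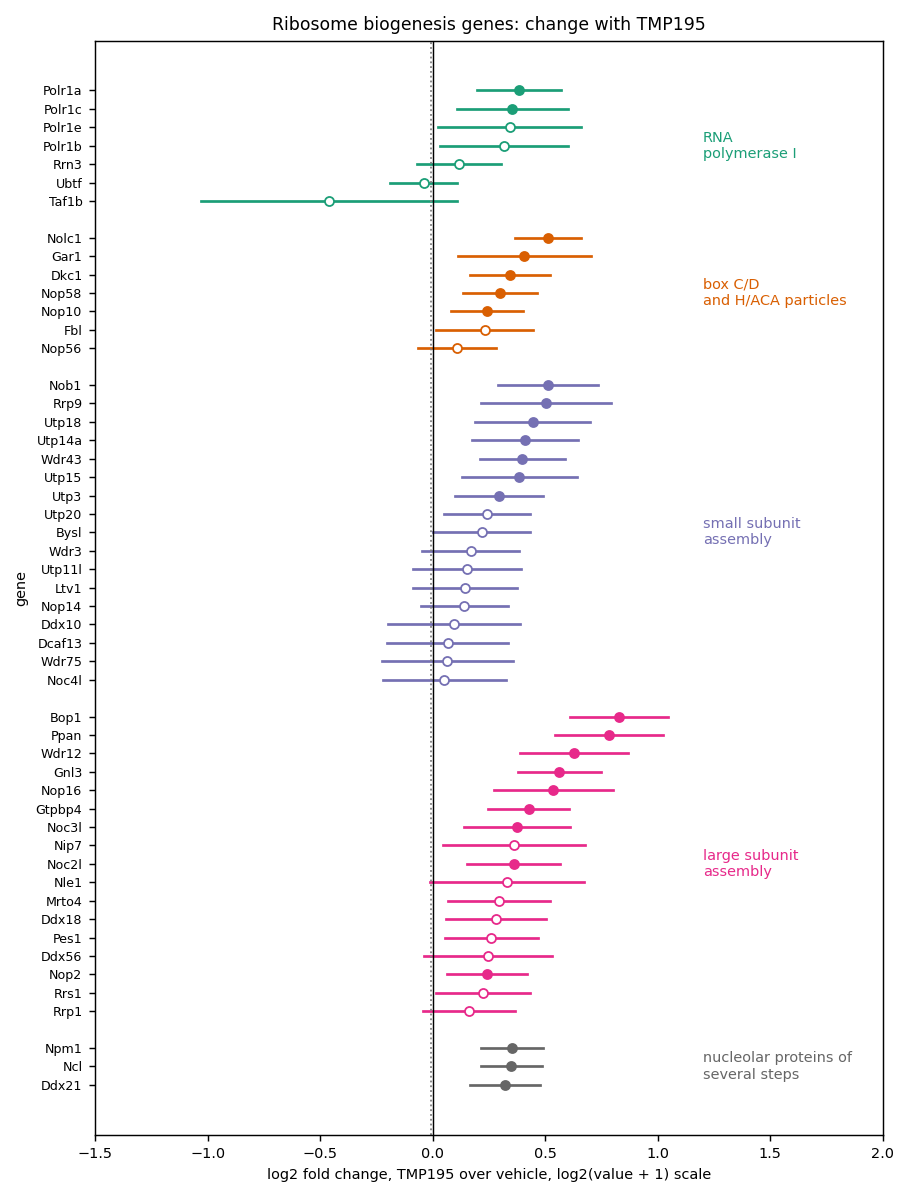
Log2 fold change of the 51 tested members, TMP195 over vehicle, with 95% confidence intervals from limma (horizontal axis, log2(value + 1) scale), ordered within each step of ribosome making. Filled points passed an adjusted p under 0.05 and open points did not; the dotted line is the median of all genes. Points lie to the right of 0 for 49 members, and Bop1 and Ppan lie farthest right.

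The promoters of the members were searched for CACGTG, the E-box that MYC and its partner MAX bind among other factors, because the members moved together. Of the tested members 47 matched a RefSeq promoter window of assembly GRCr8, which spans 250 bases before to 50 after the annotated start. Bop1 and Wdr43, which rose, and Dcaf13 and Rrs1, which did not pass, had no window and are left out of these counts. The E-box, which reads the same on both strands, was present in 14 of the 47 windows (29.8%), in 9.03% of the windows of 10072 tested genes and in 6.65% of 27457 windows in all. It was in 7 of 15 windows of large subunit genes, 5 of 15 of small subunit genes, 2 of 7 of the particle genes and 0 of 7 of the RNA polymerase I genes. Of the members with a window, 5 of 24 members that rose and 9 of 23 that did not pass had one. The GC box GGGCGG, searched on both strands, was in 68.1% of member windows and 60.2% of those of tested genes. TGATGNAAN, the element that C/EBP and ATF factors share, searched on both strands, was in 2 of 47 windows, those of Gar1 and Gtpbp4, and in 2.14% of those of tested genes. None of these motifs contains another, and mean GC content was 59.1% in member windows and 60.4% in those of tested genes. These are matches of letters and no binding was measured.

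The sequences around the E-box are shown for the 3 members that rose with one before their start, and for 3 of the large subunit genes that did not pass. Rrp1 of the large subunit and Utp20, Wdr75 and Ltv1 of the small subunit did not pass either. They also hold one before their start and are not shown. Each is written 5′ to 3′ on the strand of the gene, with the E-box in capitals and up to 25 bases on each side, none running past the annotated start. In GRCr8 they lie at chr16:6219783-6219832 on the minus strand (Gnl3), chr10:79335817-79335872 on the minus strand (Utp18), chrX:157751442-157751497 on the plus strand (Dkc1), chr14:83074271-83074326 on the plus strand (Pes1), chr13:35295973-35296010 on the minus strand (Ddx18) and chr10:68340181-68340215 on the minus strand (Nle1).
Gnl3: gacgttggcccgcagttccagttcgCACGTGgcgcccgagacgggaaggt
Utp18: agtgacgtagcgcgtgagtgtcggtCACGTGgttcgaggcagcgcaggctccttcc
Dkc1: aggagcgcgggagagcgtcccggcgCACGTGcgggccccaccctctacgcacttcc
Pes1: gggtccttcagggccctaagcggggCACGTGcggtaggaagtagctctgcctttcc
Ddx18: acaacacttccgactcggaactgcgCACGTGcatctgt
Nle1: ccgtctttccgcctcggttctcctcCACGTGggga
Dkc1, Pes1 and Ddx18 also share the bases next to the hexamer, g before and c after it. Its first base lies 25 bases before the start in Gnl3, 90 in Utp18 and 184 in Dkc1.

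Among members that serve RNA polymerase I, Polr1a and Polr1c rose. The 7 tested members thus comprised 2 that rose, 5 that missed the threshold and 0 that fell. Over all genes tested 9.93% rose and 10.3% fell. The median log2 fold change of the 7 was 0.32. Of 11 further genes of RNA polymerase I, treated below, 0 passed, and their median was -0.04. Polr1a encodes the largest subunit, which holds much of the active site. Its values were 832 and 793 with vehicle and 1078 and 1041 with TMP195. Both TMP195 libraries were above both vehicle libraries, a 1.30-fold increase (95% confidence interval 1.14 to 1.49; limma adjusted p = 0.00265). Polr1c, a subunit shared with RNA polymerase III, had 361 and 377 with vehicle and 453 and 491 with TMP195, a 1.28-fold rise (95% confidence interval 1.08 to 1.52; limma adjusted p = 0.0353). Polr1c no longer passed when low genes were kept or when values were scaled by library total (adjusted p 0.0522 to 0.0573). Polr1b, which completes the active site with Polr1a, had 321 and 261 with vehicle and 343 and 379 with TMP195 (log2 fold change 0.32, limma adjusted p = 0.114). Polr1e, a subunit that helps the enzyme start and elongate, had 192 and 227 with vehicle and 275 and 256 with TMP195 (log2 fold change 0.34, limma adjusted p = 0.129). Neither passed, although the groups did not overlap in either gene. Of the factors that seat the enzyme on the promoter, none passed. Rrn3, which couples the polymerase to the promoter factors, had 1148 and 1386 with vehicle and 1403 and 1334 with TMP195, and the groups overlapped (log2 fold change 0.12, limma adjusted p = 0.418). Ubtf, which binds along the ribosomal DNA and keeps it open, had 2888 and 2943 with vehicle and 2844 and 2825 with TMP195 (log2 fold change -0.04, limma adjusted p = 0.762). Its 95% confidence interval ran from 0.877-fold to 1.08-fold. Taf1b, part of the selectivity factor that recognises the promoter, was the member with the lowest values, 68.3 and 92.7 with vehicle and 61.5 and 53.7 with TMP195. Both TMP195 libraries were below both vehicle libraries, yet the change did not pass (log2 fold change -0.46, 95% confidence interval 0.49 to 1.08 as a fold; limma adjusted p = 0.269). The ratio of Polr1a to Ubtf, picked after the values were seen, was 0.288 and 0.270 with vehicle and 0.379 and 0.368 with TMP195. It was higher in both TMP195 libraries (two-sided exact permutation p = 0.333, the smallest that 2 against 2 libraries allow; 3 such ratios were computed in all, with adjusted p = 0.333 for each).

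Most members that serve the particles that modify ribosomal RNA rose. Calls were made for 5 of 7 tested members, all higher, beside 9.93% of all genes. Of 12 further genes for the particles, treated below, 1 rose. The median log2 fold change of the 7 members was 0.30. In all 7 both TMP195 libraries were above both vehicle libraries, which held for 28.0% of all genes. Nolc1, a phosphoprotein that chaperones both kinds of particle between Cajal bodies and the nucleolus, changed most. Its values were 2922 and 2938 with vehicle and 4162 and 4202 with TMP195, a 1.43-fold increase (95% confidence interval 1.29 to 1.58; limma adjusted p = 2.42e-06). The libraries of a treatment lay close together, and without each library in turn the log2 fold change was 0.51 to 0.52. Among genes of the H/ACA core, Dkc1 encodes dyskerin, the enzyme that makes pseudouridine, and its promoter holds the E-box printed above. It had 1258 and 1429 with vehicle and 1598 and 1812 with TMP195, a 1.27-fold rise (limma adjusted p = 0.0047). Gar1 and Nop10 encode small proteins of the same core, which telomerase also uses. Gar1 had 269 and 374 with vehicle and 381 and 466 with TMP195, and the highest vehicle library lay just below the lowest TMP195 library (1.33-fold, 95% confidence interval 1.08 to 1.63; limma adjusted p = 0.045). Gar1 no longer passed when the pseudocount was 0.1, when low genes were kept, or when values were scaled by library total (adjusted p 0.0538 to 0.151). Nop10 had 1828 and 1839 with vehicle and 2099 and 2234 with TMP195, a rise with a log2 fold change of 0.24 (limma adjusted p = 0.0262). Of the box C/D core, Nop58 had 1567 and 1711 with vehicle and 2056 and 1978 with TMP195, a 1.23-fold rise (limma adjusted p = 0.00683). Fbl, the methyltransferase fibrillarin, had 708 and 628 with vehicle and 721 and 851 with TMP195 and did not pass (log2 fold change 0.23, limma adjusted p = 0.126). Nop56, the partner of Nop58 in the core, also did not pass (log2 fold change 0.11, limma adjusted p = 0.422).

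Of the genes that assemble the small subunit, Nob1, Wdr43, Utp14a, Rrp9, Utp18, Utp15 and Utp3 rose. These are 7 of 17 tested, beside 9.93% of all genes, while 0 fell and 10 missed the threshold. The median log2 fold change was 0.22 and all 17 were above 0. In 11 both TMP195 libraries were above both vehicle libraries, which held for 28.0% of all genes. Nob1 is the endonuclease that makes the last cut at the end of the small subunit's RNA. It had 475 and 562 with vehicle and 712 and 762 with TMP195, a 1.42-fold increase (95% confidence interval 1.22 to 1.66; limma adjusted p = 0.000819). Wdr43 belongs to the subcomplex that joins the precursor first as it is copied. Its values were 1084 and 1252 with vehicle and 1661 and 1419 with TMP195, with the TMP195 libraries apart from each other but both above vehicle (log2 fold change 0.40, limma adjusted p = 0.00193). Utp15 of the same subcomplex rose (log2 fold change 0.39, limma adjusted p = 0.0254), while a further subunit, Wdr75, had 0.06 (limma adjusted p = 0.809) with overlapping groups. Utp14a, known in yeast to switch on the helicase that removes a guide RNA, had 398 and 429 with vehicle and 569 and 530.4 with TMP195 (log2 fold change 0.41, limma adjusted p = 0.00988). Rrp9, a protein of the box C/D particle that guides the early cuts, had 250.3 and 264 with vehicle and 329 and 406 with TMP195, a 1.42-fold rise (limma adjusted p = 0.00993). Utp18, whose promoter window is printed above, had 332 and 352 with vehicle and 501 and 432 with TMP195 (log2 fold change 0.44, limma adjusted p = 0.0103). Utp3, another factor of the early particle, rose as well (log2 fold change 0.30, limma adjusted p = 0.0261). The 10 members that did not pass had log2 fold changes of 0.05 to 0.24. They include Utp20 (0.24), a long scaffold protein, Bysl (0.22), which stays on the particle until export, Wdr3 (0.17), the late factor Ltv1 (0.14), and Nop14 (0.14) and Noc4l (0.05), which bind each other. The others were Utp11l (0.15), the helicase Ddx10 (0.09) and Dcaf13 (0.07), besides Wdr75.

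**Figure D2:**
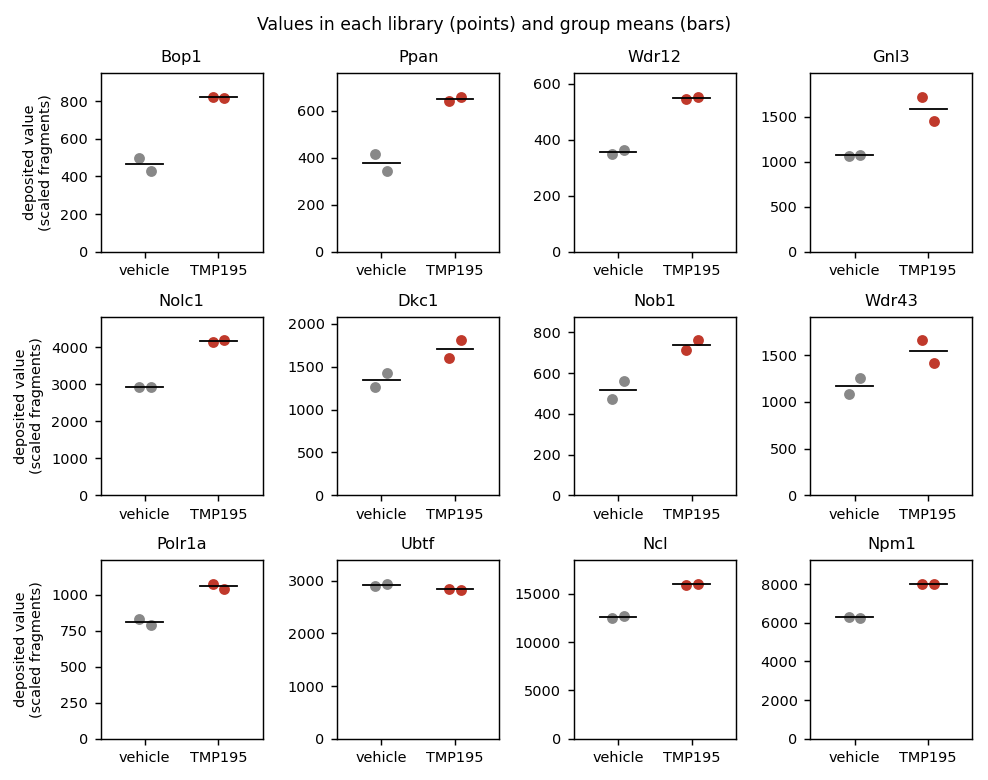
Deposited value in each library (vertical axis, scaled fragments, starting at 0) for 12 members: 2 vehicle libraries in grey, 2 TMP195 libraries in red, horizontal bars at the group means. In 11 panels both TMP195 points lie above both vehicle points, and in Ubtf they lie slightly below.

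The large subunit genes included the members with the largest changes. Among the 17 tested, limma called 9 higher and 0 lower, beside 9.93% and 10.3% of all genes. The median log2 fold change was 0.36. In all 17 both TMP195 libraries were above both vehicle libraries, which held for 28.0% of all genes. Bop1, Wdr12 and Pes1 form the PeBoW complex, which processes the precursor of the large subunit's RNAs. Bop1 had 496 and 431 with vehicle and 824 and 818 with TMP195, a 1.78-fold increase (95% confidence interval 1.53 to 2.06; limma adjusted p = 7.37e-07). Wdr12 had 348 and 363 with vehicle and 545 and 554 with TMP195, a 1.54-fold increase (95% confidence interval 1.31 to 1.82; limma adjusted p = 0.000177). Pes1, whose promoter holds the E-box printed above, had 606 and 656 with vehicle and 765 and 745 with TMP195 and did not pass, although the groups did not overlap (1.20-fold, 95% confidence interval 1.04 to 1.38; limma adjusted p = 0.0685). The ratio of Bop1 to Pes1 was 0.818 and 0.657 with vehicle and 1.08 and 1.10 with TMP195, and that of Wdr12 to Pes1 was 0.574 and 0.554 with vehicle and 0.712 and 0.744 with TMP195. Both ratios were picked after the values were seen, and both were higher in each TMP195 library, which 2 against 2 libraries cannot bring past the threshold (two-sided exact permutation p = 0.333, the smallest possible). Ppan, a factor of the early large particle, had 416 and 344 with vehicle and 642 and 662 with TMP195, a 1.72-fold increase (95% confidence interval 1.46 to 2.03; limma adjusted p = 8.56e-06). Gnl3, the GTPase nucleostemin, had 1068 and 1081 with vehicle and 1727 and 1459 with TMP195, a 1.48-fold rise (limma adjusted p = 2.12e-05). The TMP195 libraries of Gnl3 stood apart from each other, and the vehicle libraries agreed closely. Gtpbp4, a GTPase that leaves the particle late, had 1041 and 1169 with vehicle and 1538 and 1432 with TMP195 (log2 fold change 0.43, limma adjusted p = 0.00056). Nop16 (0.54), the binding partners Noc3l (0.38) and Noc2l (0.36), and Nop2 (0.24), which methylates the large subunit's RNA, also rose, with limma adjusted p from 0.00277 to 0.0458. The Nop2 call was lost under 5 of 8 alternative settings that kept every library (adjusted p 0.0569 to 0.0980). The 8 members that did not pass had log2 fold changes of 0.16 to 0.36. They were Nip7 (0.36), Nle1 (0.33), Mrto4 (0.30), the helicases Ddx18 (0.28) and Ddx56 (0.25), Pes1 (0.26), Rrs1 (0.22) and Rrp1 (0.16). With the test limited to genes whose mean reached 100, Mrto4, Ddx18, Pes1 and, of the small subunit genes, Utp20 passed as well.

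Transcripts of the nucleolar proteins that act at several steps rose by nearly the same factor. Ncl encodes nucleolin, which binds the precursor RNA and its chromatin, and had 12451 and 12655 with vehicle and 15929.7 and 16046 with TMP195. It rose 1.27-fold (95% confidence interval 1.16 to 1.40; limma adjusted p = 0.000228). Npm1, nucleophosmin, a chaperone that helps hold the nucleolus together, had 6294 and 6265 with vehicle and 8034 and 8011 with TMP195, a 1.28-fold rise (95% confidence interval 1.16 to 1.41; limma adjusted p = 0.000228). The libraries of each treatment lay close together in both genes, well within the gap between the treatments. Processed copies of Npm1 and Ncl are known in mammalian genomes, so how fragments were shared with such copies is uncertain. Ddx21, a helicase that links transcription and processing of the precursor, had 2716 and 2736 with vehicle and 3614 and 3209 with TMP195, a 1.25-fold rise (limma adjusted p = 0.00221). Its TMP195 libraries differed from each other more than its vehicle libraries did.

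Levels per length, in the FPKM values that the authors deposited, spanned a wide range among the members. The mean vehicle level was highest in Npm1 (415 FPKM) and Ncl (407 FPKM), followed by Nop10 (199 FPKM). Most particle genes came next, Nop58 at 66.5, Dkc1 at 63.0, Nolc1 at 61.1, Nop56 at 54.7 and Fbl at 48.6 FPKM. Polr1a (9.95 FPKM), Polr1b (5.81 FPKM) and Taf1b (3.25 FPKM) were near the low end, and the median over the 51 was 24.2 FPKM. Across the 51 genes, which share the same 4 libraries, the vehicle level and the log2 fold change had a Spearman correlation of -0.01 and a Pearson correlation of 0.14, given as a description. The authors' deposited table of higher genes holds 13 of the 51 members, against 5.57% of its 10672 genes, and its table of lower genes holds 0, against 5.84%. Of those 13, limma called 11, and Nip7 and Nle1 are listed there alone.

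**Figure D3:**
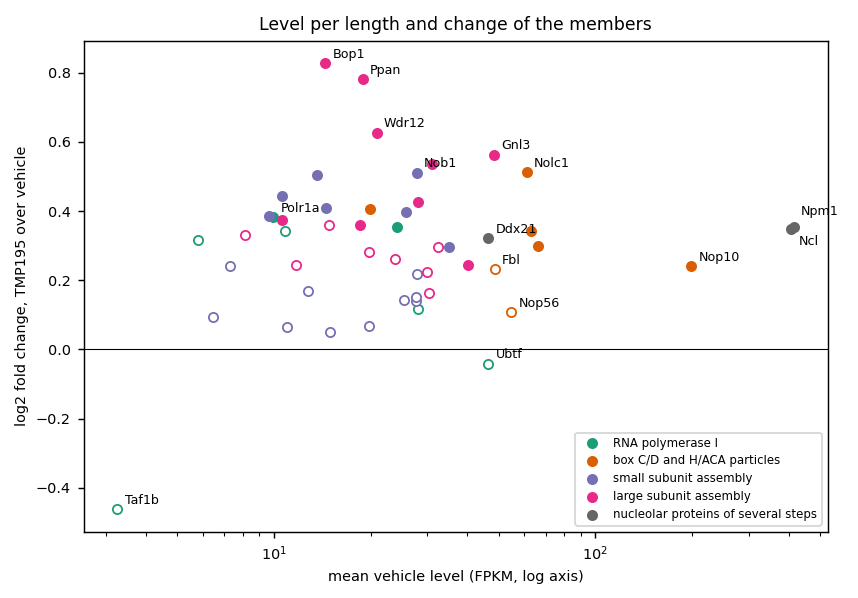
Mean vehicle level of each tested member in FPKM (horizontal log axis) against its log2 fold change with TMP195 (vertical axis), coloured by step; filled points passed the limma test. Npm1 and Ncl are the most abundant and changed by about 0.35 on the log2 scale. The largest changes belong to Bop1 (14.4 FPKM) and Ppan (18.9 FPKM), below the median level of 24.2 FPKM.

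Members that carry small nucleolar RNA genes within their span were looked up in the RefSeq annotation. Of the 51 tested members 6 (11.8%) have one, against 2.34% of 12313 tested genes matched. They are Nop56 and Nop58 with 5 each, Wdr43, Gnl3 and Ncl with 3 each and Ppan with 2. Nop58, Wdr43, Gnl3, Ncl and Ppan rose, and Nop56 did not pass. The table does not separate fragments of such a small RNA from those of its host, and gives no strand, so antisense and overlapping genes cannot be told apart.

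Some assembly factors outside the member list rose too. The lists came from general knowledge of the pathway, with earlier results of these data known, and 119 genes of them were tested. Of these 27 rose and 0 fell by limma (37 higher and 2 lower at an unadjusted p under 0.05; limma-voom called 21 and 0), and the median log2 fold change was 0.17. Of 34 further small subunit genes 11 rose, with a median of 0.23. Pno1, which guards the end of the small subunit's RNA until Nob1 cuts it, had 517 and 589 with vehicle and 837 and 832 with TMP195 (log2 fold change 0.60, limma adjusted p = 6.66e-05). Riok2 (0.48), a kinase of late particles, Rrp7a (0.40) and Wdr46 (0.35) rose with it. Of 42 further large subunit genes 13 rose, with a median of 0.20. Ccdc86 had 412 and 454 with vehicle and 676 and 659.9 with TMP195 (log2 fold change 0.63, limma adjusted p = 8.09e-05), and Mybbp1a (0.41), Sdad1 (0.48) and the methyltransferase Ftsj3 (0.40) rose. Of 12 further genes for the particles Nufip1 (0.47, limma adjusted p = 0.00982), which helps assemble box C/D particles, was the 1 that passed, with a median of 0.09; Ruvbl1 (0.27), Rpap3 (-0.30) and Shq1 (0.60) did not pass. Of 11 further genes of RNA polymerase I 0 passed in limma or limma-voom, with 1 higher and 1 lower at an unadjusted p under 0.05. Their median was -0.04, and Twistnb had 0.23, Polr2f -0.20, Polr2k 0.20 and Cd3eap 0.20. Among 20 genes of RNase MRP and the RNA exosome, which trim the precursor, Rpp14 (0.35) and Exosc4 (0.41) rose, a share near the 9.93% of all genes, and Exosc4 did not pass with limma-voom (adjusted p = 0.0514). Pop7 (-0.27) and Rpp40 (0.35) did not pass, and the median was 0.01. These lists were not tested against each other.

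The products that these factors assemble are the cytosolic ribosomal proteins, and their transcripts rose in part. Of 73 tested genes 30 were higher and 0 were lower (0 also at an unadjusted p under 0.05 and with limma-voom). The median log2 fold change was 0.18. Rpl10 had 17706 and 17069.8 with vehicle and 22955 and 24636 with TMP195, Rpl4 had a log2 fold change of 0.42 and Rpl13a of 0.36 (limma adjusted p from 9.69e-06 to 0.000574). Ribosomal protein genes have many near-identical processed copies, so their values are uncertain. Among 9 genes of the MYC network, Myc itself had 2024 and 2302 with vehicle and 3789 and 4493 with TMP195, a 1.91-fold increase (limma adjusted p = 8.08e-10). Its relative Mycn had 386 and 427 with vehicle and 230.2 and 261 with TMP195 and fell (log2 fold change -0.72), as did Mxi1 (-0.64) and Mxd3 (-1.14), which compete with MYC for MAX (limma adjusted p from 0.000209 to 0.0399). With limma-voom Mxd3 did not pass (adjusted p = 0.0517), which left 2 lower. Mxd1 (-0.02), Mxd4 (-0.18), Mnt (0.21), Mlx (0.25) and Max (-0.02) did not pass in limma. By limma 1 of the 9 thus rose and 3 fell, beside 9.93% and 10.3% of all genes, and the median was -0.02.

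**Figure D4:**
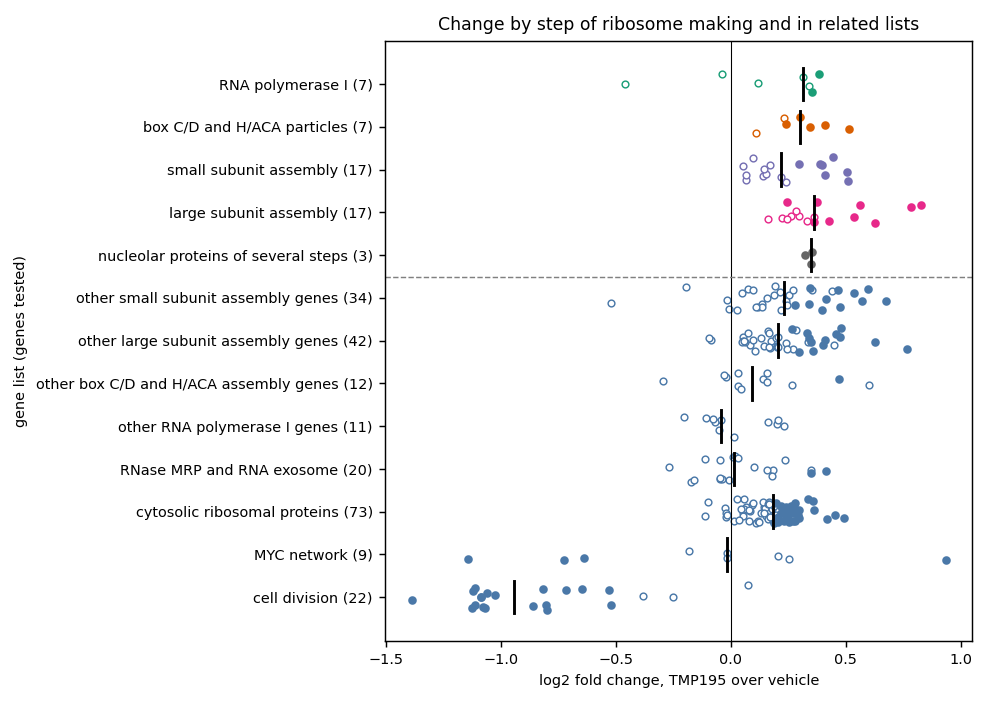
Log2 fold change with TMP195 (horizontal axis) of each gene in the 5 groups of members (above the dashed line) and in related lists (below it), with the number of tested genes in brackets. Filled points passed the limma test and black bars are medians. Cell division genes lie mostly to the left of 0. The groups of members, the other subunit and particle lists and the ribosomal protein genes lie mostly to the right. Other RNA polymerase I genes (5 of 11 above 0) and those of RNase MRP and the RNA exosome (11 of 20) lie on both sides.

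Many transcripts of cell division and some of other cell types fell beside this rise. Of 22 cell division genes 19 fell and 0 rose (0 higher also at an unadjusted p under 0.05 and with limma-voom), with a median log2 fold change of -0.94. Mki67, the gene of a marker of dividing cells, had 2947 and 2837 with vehicle and 1311 and 1414 with TMP195 and fell (log2 fold change -1.09), as did Rrm2 (-1.08), Top2a (-1.06) and Mcm5 (-1.39), with limma adjusted p from 1.12e-11 to 1.28e-07. Fibroblast markers fell in 4 of 9, beside 10.3% of all genes. Their summed value was 94214 to 97591 with vehicle and 69648 to 72589 with TMP195. Most of that sum came from Col1a1 (69970 and 66449 with vehicle) and Col3a1 (17718 and 17335 with vehicle), which both fell. Dcn (-0.06), Ddr2 (-0.05), Postn (0.12), Lum (-0.42) and Thy1 (-0.47) did not pass. Smooth muscle and pericyte markers fell in 4 of 8 (35192 to 37001 with vehicle, 30792 to 30846 with TMP195). Des made up much of that sum, with 18222 and 20232 with vehicle and 18726 and 17794 with TMP195. Its groups overlapped and it did not pass (-0.07). Neither did Pdgfrb (0.06), Myh11 (-0.26) or Rgs5 (-1.49). Endothelial markers fell in 2 of 8 (653 to 716 with vehicle, 379 to 381 with TMP195). Kdr (323 and 375 with vehicle) and Tek (168 and 205 with vehicle), which both fell, made up most of that sum. Cdh5 (-1.01), Tie1 (-1.08), Emcn (-2.12), Egfl7 (-0.37), Pecam1 (-0.11) and Vwf (0.48) did not pass, with low vehicle means of 5.85 to 45.3. Of 10 cardiomyocyte markers 2 rose and 3 fell, while limma-voom called 2 higher and 5 lower and 4 were lower at an unadjusted p under 0.05 (470705 to 476057 with vehicle, 432943 to 435584 with TMP195), and Tnnt2, Myh6 and Actc1 were among the most abundant, matching the label of ventricular myocytes. Macrophage markers passed in 0 of 6 (also with limma-voom and at an unadjusted p under 0.05; 415 to 444 with vehicle, 420 to 512 with TMP195). Red cell markers passed in 0 of 3 by the same measures and together summed to 3.84 to 13.1 in every library, with Hbb-b1 listed at 0. Genes of these lists that were missing from the table or below the filter are not in the sums. The part of these shifts in the rise of the ribosome biogenesis genes was not tested.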

How the data were processed

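Sequencing of total RNA from cultured cells (2 libraries with vehicle, 2 with TMP195) gave a table deposited by the authors. Its values are a signal: the authors estimated fragments per gene and scaled them by a common factor per library before they deposited them, as the values themselves show. Cufflinks is named in the submitters' processing notes; the sources used here give no aligner, version, build or annotation. In each library 99.3 to 99.5% of values up to 10000 lay within 0.1 fragment of a whole number once divided by the library's smallest step. Divided by that step the libraries held 11768452 to 14232152 fragments. The authors' second table gives FPKM, and their sheets of higher and lower genes add an unadjusted p-value and a ratio of mean FPKM. These deposited p-values and ratios were used for membership of a sheet alone.

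The 12689 genes whose mean reached 1 were fitted with limma 3.58.1 in R 4.3.3 on log2(value + 1), with a mean-variance trend, treatment as the only term and no further scaling. With 2 residual and 27.4 prior degrees of freedom in this fit, the spread behind each p-value came mostly from the trend across genes. P-values were adjusted over all genes tested (Benjamini-Hochberg). Fold changes on this scale understate the change of low genes. The fit was also run on simulated data that gave every gene the same spread setting. That run cannot show how the fit handles the real spread between libraries, and no result here rests on it. Members and lists were chosen with earlier results of these data known. Values in every library are given for the 5 members of each step with the smallest p and for Polr1a, Ubtf, Rrn3, Ncl, Npm1 and Fbl, and for further genes chosen after their values were seen; of each other list the 4 genes with the smallest p are named, except for a ribosomal protein gene that is not reported here. Sequences are from RefSeq, assembly GRCr8, the first listed window of each gene; names were matched by symbol or unique synonym. The alternatives were another pseudocount, other filters on low values, scaling by library total or median ratio, limma-voom, the replicate number as a block and leaving out each library.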

Additional observations from a re-analysis of the deposited data

How the results depend on the processing

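Across the 8 settings that kept all 4 libraries, 23 to 30 members were called higher and 0 lower, and 23 of the 26 called members passed in each of the 8; Gar1, Nop2 and Polr1c did not. The members' median log2 fold change of 0.32 was 0.29 with scaling by library total and 0.29 with limma-voom; counts of all genes called higher ran from 942 to 1386, and of all genes called lower from 1007 to 1479. The replicate numbers are not said to pair the libraries, and deviations of same-numbered libraries correlated at 0.0047 across genes; with the replicate number as a block 25 members were called, with 1193 for all genes called higher and 1266 for all genes called lower.

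With 1 library left out, 0 to 6 members were called higher, all genes called higher numbered 0 to 322 and all genes called lower 0 to 406, and the members' median was 0.29 to 0.34; with 1 residual degree of freedom and few prior ones (1.93 to 4.83, against 27.4), limma made these calls while 18 to 29 members were higher at an unadjusted p under 0.05. Limited to genes whose mean reached 100, the same fits called 18 to 24 members, 971 to 1086 genes higher and 944 to 1082 lower, and the median was 0.30 to 0.35. Of members that did not pass, 5 changed sign under both filters with 1 library left out, and the cause was not tested. The log2 fold change of Dcaf13 was -0.0552 to 0.188 (-0.0159 without TMP195 2), that of Rrn3 -0.0189 to 0.252, that of Ddx10 -0.0530 to 0.241 and that of Wdr75 -0.00302 to 0.133. The log2 fold change of Noc4l was -0.0347 to 0.138, with -0.00361 without vehicle 1. TMM scaling of the deposited values and the count models planned on recovered reads were not run, as the values could not all be brought back to whole reads. Depth limits Taf1b, at 53.7 to 92.7, more than the other members.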
